A study of Mus musculus with 6 samples.

Results

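Globin and erythroid genes are read here as a set of 9 genes in gastrocnemius muscle, chosen by gene symbol among 23997 symbols in the expression files. Hba-a1 and Hba-a2 encode the adult alpha chains of hemoglobin, and Hbb-b1, Hbb-bs and Hbb-bt encode adult beta chains. Alas2 encodes the form of the first heme synthesis enzyme that is particular to the red cell line, Slc4a1 the anion exchanger band 3, and Gata1 and Klf1 are transcription factors of the erythroid lineage.

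RNA was sequenced from the gastrocnemius, a calf muscle of mixed fiber type, of 3 HrasG12V and 3 WT mice aged 21 days, with 1 library per mouse. HrasG12V mice model Costello syndrome, in which people are born with an overactive form of the small GTPase HRAS. They were Caggs-Cre+/HrasG12V/+, so that a Cre driven by the broadly active CAG promoter had replaced one normal allele by the mutant allele under its own promoter, in muscle and in other tissues alike. The WT mice are labelled Hras+/+ in one field and Caggs-Cre-/HrasflG12V/+ in another, and by the latter carried the same floxed allele without Cre, so Cre itself was present in the mutants alone. Both genotypes were untreated, were littermates, and were bred on a mixed SWR/J, 129S1/SvImJ and C57BL/6J background. Sex, litter and batch are not in the labels. Mice are called here by the numbers in the labels, which are 2277, 2280 and 2281 for WT and 2276, 2278 and 2279 for HrasG12V.

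Hemoglobin is a tetramer of alpha and beta chains, each holding a heme, and its chains are made in erythroid precursors and in reticulocytes, which still carry RNA when they enter the blood. Mature mouse red cells have no nucleus and lose their RNA. In adult mice red cells are made in bone marrow and spleen, so globin RNA in a muscle sample is commonly taken as a mark of blood, whereas GATA1 and KLF1, which act in nucleated precursors before the reticulocyte, mark the tissues where red cells are made.

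Values are FPKM, that is read counts divided by transcript length and by the size of the library, so levels of different genes can be compared per unit of length. Differences between genotypes are log2 fold changes of FPKM + 0.1, HrasG12V minus WT, and come with a standard error and a limma p over 13359 genes with a mean of at least 0.5 FPKM. FPKM totals ran from 413020 to 814013 per library and are not depths. The study's methods give a rounded number of reads for each sample, and the exact number in each library was not used here. Hras itself, at 36.8, 36.0 and 51.8 FPKM in the WT mice and 58.8, 28.9 and 16.0 FPKM in mutants 2276, 2278 and 2279, does not check the labels, since a point mutation need not change the level. Of 10 skeletal muscle markers, Mylpf, Tnni2, Pvalb, Actn3 and Ttn had values of 151 FPKM or more in all 6 libraries, while Acta1 and Myh4 are listed at 0 in all 6, Ckm in 5, Myh1 in WT mice 2277 and 2280, and Tnnt3 in mouse 2276. A value of 0 therefore need not mean absence of RNA. HrasG12V mice 2278 and 2279 stood apart from the other 4 in markers of lymphocytes and of marrow neutrophil precursors, whose values are given after those of the erythroid genes. Mouse 2276, which had the most globin FPKM, stood apart in another way. Its FPKM total was the highest, and leaving it out raised the genes past the adjusted limit from 8 to 1291. Its 10 skeletal muscle markers summed to 90797 FPKM against 36910 to 64975 FPKM in the other mice. As a share of the FPKM total that sum was within the range of the other mice. The sums also hold the zeros listed above, so they are not read as a separate difference.

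The adult globin copies are nearly the same in sequence, and this limits what each copy's value can say. In the GENCODE vM21 transcripts on GRCm38, the coding sequences of Hba-a1 and Hba-a2 are both 426 bases long and differ at 1 base. Those of Hbb-bs and Hbb-bt are 441 bases long and also differ at 1 base. The stretches below end at that base, which is in capitals, and cover coding bases 292 to 381 of the alpha genes and 328 to 417 of the beta genes.

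Hba-a1: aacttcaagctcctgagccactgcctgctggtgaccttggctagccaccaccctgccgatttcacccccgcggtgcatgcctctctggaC
Hba-a2: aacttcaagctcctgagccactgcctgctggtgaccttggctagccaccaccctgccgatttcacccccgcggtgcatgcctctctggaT
Hbb-bs: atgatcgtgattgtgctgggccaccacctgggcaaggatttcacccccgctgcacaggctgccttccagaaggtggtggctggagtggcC
Hbb-bt: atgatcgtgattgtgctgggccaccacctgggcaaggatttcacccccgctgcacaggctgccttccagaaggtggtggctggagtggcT

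The reads were 50 bases long. Of all 50-base windows of the Hba-a1 transcript, 67.5% occur unchanged in Hba-a2, and 86.9% of the windows of Hba-a2 occur in Hba-a1. The shared windows made up 65.8% of Hbb-bs and 58.3% of Hbb-bt. The split between such copies therefore depends on how the software shared out reads that match both, and the sum over the copies depends on it less. The alpha genes lie on chromosome 11 of GRCm38, Hba-a1 at chr11:32283511-32284465 and Hba-a2 at chr11:32296489-32297298, both on the plus strand. Hbb-bs at chr7:103826534-103828096 and Hbb-bt at chr7:103812524-103813996 lie on the minus strand of chromosome 7. Hbb-b1 is the name of a beta gene of another mouse beta-globin haplotype, and the labels do not give the haplotype of these mice. Which place in the reference genome the Hbb-b1 row stands for is not known here, so the split of the beta sum among the 3 names is uncertain.

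The row named Hba-a1, which held nearly all alpha FPKM, was at 159, 128 and 142 FPKM in WT mice 2277, 2280 and 2281. It stood at 429, 238 and 120 FPKM in HrasG12V mice 2276, 2278 and 2279. Mice 2276 and 2278 stood above all WT mice and mouse 2279 below all of them, so that the genotypes overlapped. The means were 142.9 ± 15.9 and 262 ± 156 FPKM (SD, n = 3 each). The log2 fold change was 0.69 with an SE of 0.47, and limma's adjusted p was 0.664.

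Hba-a2 was far below Hba-a1 in every library, at 0.250, 1.10 and 4.15 FPKM in the WT mice and 0.0978, 10.7 and 3.74 FPKM in mutants 2276, 2278 and 2279. The mouse with the most Hba-a1, 2276, had the least Hba-a2. Hba-a2 made up between 0.0228% and 4.29% of the alpha sum. Its log2 fold change of 0.73 had an SE of 1.58 and a limma adjusted p of 0.917.

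The row named Hbb-b1 had the highest FPKM of the globin genes. It reached 487, 413 and 447 FPKM in the WT mice and 1209, 967 and 375 FPKM in mutants 2276, 2278 and 2279. Mice 2276 and 2278 again lay above all WT mice, and 2279 below them. By FPKM Hbb-b1 ranked 81st in mouse 2276 and 34th in mouse 2278 among all symbols, and between 133rd and 151st in the other 4 mice. The log2 fold change was 0.76 with an SE of 0.48 (limma, adjusted p = 0.638).

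Hbb-bt followed Hbb-b1 closely, at 102, 85.9 and 97.3 FPKM in the WT mice and 285, 222 and 79.8 FPKM in mutants 2276, 2278 and 2279. Its order over the mice was the same in kind, with 2276 and 2278 above the WT mice and 2279 below. Its log2 fold change of 0.85 (SE 0.48) had an adjusted p of 0.601 in limma. Hbb-bs was lower and less regular, at 3.47, 20.8 and 24.3 FPKM in the WT mice and 27.3, 22.8 and 11.6 FPKM in mutants 2276, 2278 and 2279. One WT mouse, 2277, had the lowest Hbb-bs of all 6, and the genotypes overlapped with a log2 fold change of 0.67 (SE 0.76) and a limma adjusted p of 0.817.

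Summed over the copies, alpha globin came to 160, 129 and 146 FPKM in the WT mice and to 429, 249 and 123 FPKM in mutants 2276, 2278 and 2279. Beta globin came to 593, 520 and 569 FPKM in the WT mice and to 1522, 1212 and 466 FPKM in the mutants. All 5 genes together were at 753, 648 and 715 FPKM in WT mice, a narrow range, and at 1951, 1460 and 590 FPKM in the mutants. Relative to the WT mean of 705 ± 52.8 FPKM (SD, n = 3), adult globin was thus 2.77 times as high in mouse 2276, 2.07 times as high in mouse 2278 and 0.836 times as high in mouse 2279. The difference in mean log2 sum was 0.76, with no test made of a sum over chosen genes.

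As a share of all FPKM in a library, the 5 globin genes held 0.144%, 0.132% and 0.131% in the WT mice. They held 0.240% in mouse 2276, 0.340% in mouse 2278 and 0.143% in mouse 2279. On this scale mouse 2278 had the highest share and mouse 2279 lay within the WT range, since the total FPKM of mouse 2276 was the highest of the 6 and that of mouse 2279 the lowest.

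The balance of chains moved less than their level. Beta over alpha was 3.72, 4.04 and 3.90 in WT mice and 3.55, 4.87 and 3.78 in mutants 2276, 2278 and 2279. Mouse 2278 had the highest ratio and mouse 2276 the lowest, on either side of the WT mice. The means of 3.88 ± 0.162 and 4.07 ± 0.709 (SD, n = 3 each) differed by less than the spread among the mutants. Within the beta sum, Hbb-b1 held 78.6% to 82.2% and Hbb-bt 16.5% to 18.7% over all 6 mice, while Hbb-bs held from 0.586% to 4.28%.

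Alas2, on the X chromosome at chrX:150547375-150570638 (GRCm38, plus strand), encodes the first and rate-limiting enzyme of heme synthesis in erythroid cells. It was at 11.03, 8.50 and 9.55 FPKM in the WT mice and 21.5, 23.4 and 9.60 FPKM in mutants 2276, 2278 and 2279. Mice 2276 and 2278 stood at 2.22 and 2.42 times the WT mean of 9.69 ± 1.27 FPKM (SD, n = 3), and 2279 at 0.991 times. The log2 fold change of 0.81 (SE 0.35) did not pass the limit in limma, with an unadjusted p of 0.0587 and an adjusted p of 0.510.

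Alas2 moved with globin. Per 1000 FPKM of adult globin there were 14.7, 13.1 and 13.4 FPKM of Alas2 in the WT mice and 11.02, 16.0 and 16.3 FPKM in mutants 2276, 2278 and 2279. The ratio was lowest in mouse 2276 and highest in 2278 and 2279, within a range much narrower than that of either gene's level.

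**Figure D1:**
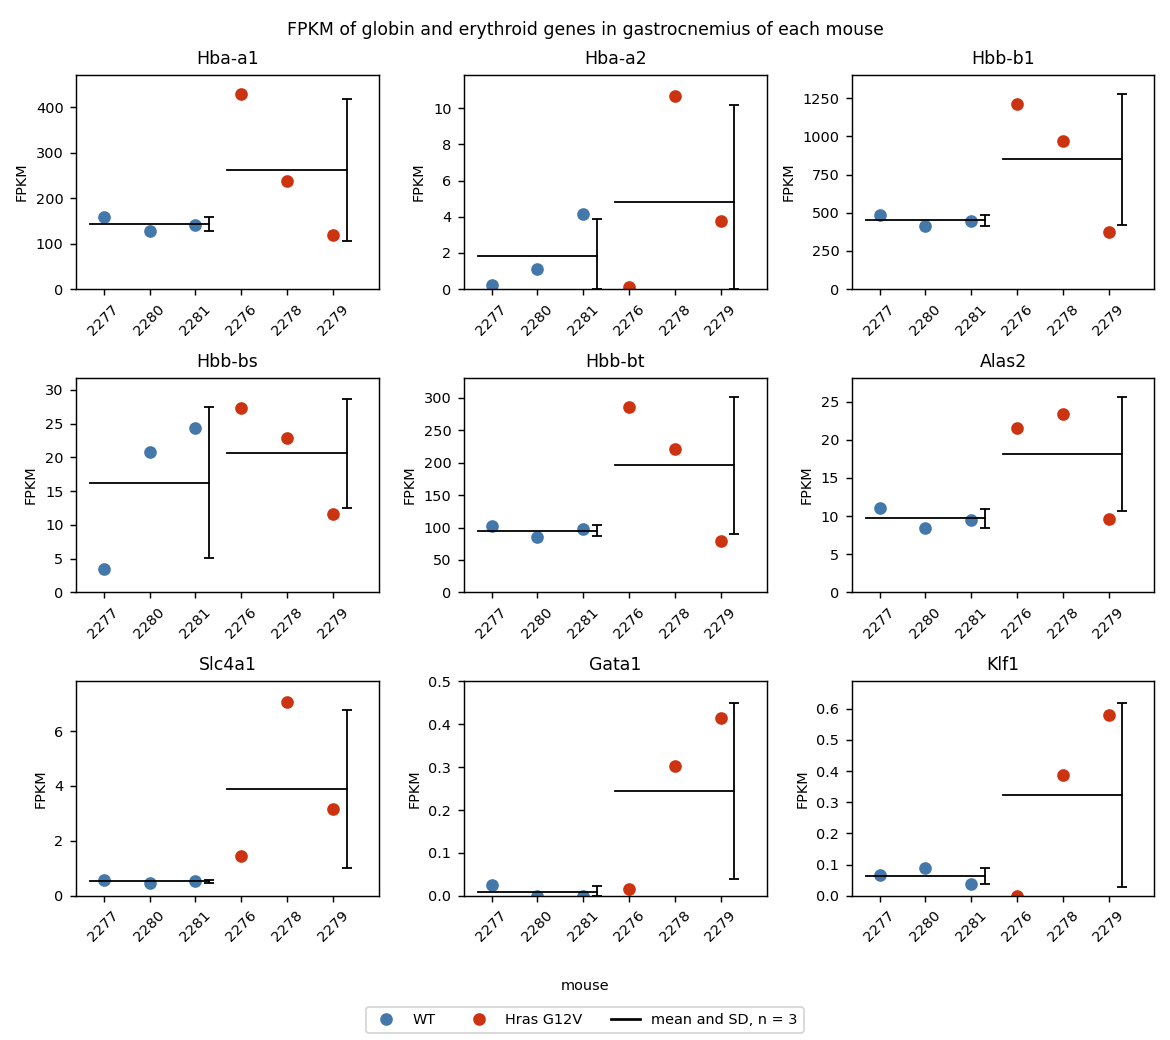
FPKM of each of the 9 genes (vertical axis, linear from 0, a scale of its own in each panel) in each mouse (horizontal axis), with WT mice in blue and HrasG12V mice in red, and the mean and SD of each genotype (n = 3) as black lines, cut at 0. For Hba-a1, Hbb-b1, Hbb-bt and Alas2 mice 2276 and 2278 stand above WT, whereas for Gata1 and Klf1 mice 2278 and 2279 do; for Slc4a1 all 3 mutants do, from 1.46 to 7.05 FPKM.

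Slc4a1 was the one gene of the set whose genotypes did not overlap. Band 3, its product, exchanges chloride and bicarbonate across the red cell membrane and anchors the membrane to the cytoskeleton. The gene lies at chr11:102348824-102366203 on the minus strand of GRCm38. Slc4a1 was at 0.584, 0.479 and 0.524 FPKM in the WT mice and at 1.46, 7.05 and 3.15 FPKM in mutants 2276, 2278 and 2279. All 3 mutants lay above all 3 WT mice, by 2.77, 13.3 and 5.96 times the WT mean of 0.529 ± 0.0531 FPKM (SD, n = 3). Its log2 fold change of 2.40 (SE 0.53) had an unadjusted p of 0.00316 and an adjusted p of 0.349 in limma, so it was past the unadjusted limit of 0.05 alone.

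The order of the mutants differed between Slc4a1 and globin. Per 1000 FPKM of adult globin there were 0.777, 0.738 and 0.733 FPKM of Slc4a1 in the WT mice, 0.751 in mouse 2276, 4.83 in mouse 2278 and 5.34 in mouse 2279. Mouse 2276, with the most globin, thus had Slc4a1 in the same proportion to globin as the WT mice. Mice 2278 and 2279 had several times more Slc4a1 for their globin.

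**Figure D2:**
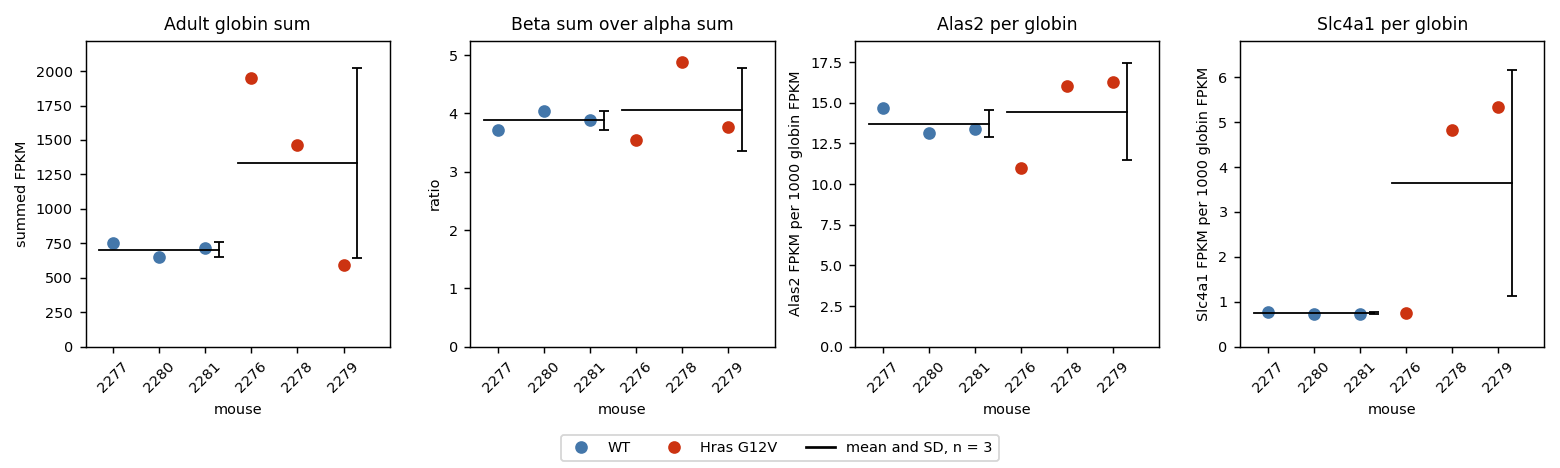
Summed FPKM of the 5 adult globin genes, the ratio of the beta sum to the alpha sum, and Alas2 and Slc4a1 per 1000 FPKM of adult globin, for each WT (blue) and HrasG12V (red) mouse, with the mean and SD of each genotype (n = 3). Slc4a1 per globin lay between 0.733 and 0.777 in the WT mice and at 0.751 in mouse 2276, but at 4.83 and 5.34 in mice 2278 and 2279.

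Gata1 and Klf1 were near the lower end of the measured range and did not reach the mean of 0.5 FPKM needed for the test. GATA1 binds GATA motifs in the promoters and enhancers of most erythroid genes and is also used by megakaryocytes, mast cells and eosinophils. KLF1 binds CACCC motifs and is needed for adult beta-globin expression. Gata1, at chrX:7959260-7978071 (minus strand), was at 0.0246 FPKM in WT mouse 2277 and listed at 0 in 2280 and 2281. In mutants 2276, 2278 and 2279 it was at 0.0152, 0.303 and 0.414 FPKM. Klf1, at chr8:84901928-84905291 (plus strand), was at 0.0666, 0.0879 and 0.0382 FPKM in the WT mice, listed at 0 in mouse 2276, and at 0.389 and 0.580 FPKM in mice 2278 and 2279.

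Mice 2278 and 2279 thus had the highest Gata1 and the highest Klf1. Mouse 2276 lay within the WT range for Gata1, and its Klf1 was listed at 0, which need not mean absence. With no filter on low values, limma gave Gata1 a log2 fold change of 1.42 (SE 0.56, unadjusted p = 0.0451, adjusted p = 0.535) and Klf1 one of 0.98 (SE 0.72, adjusted p = 0.715) over 19388 genes. At such levels a log2 fold change depends on the 0.1 that was added to each FPKM.

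Of the 9 genes, 7 entered the test. All 7 had a log2 fold change above 0, with a median of 0.76, against a median of -0.03 over all genes tested. The globin copies among them share many of their 50-base windows, so the 7 signs are not separate results. One of the 7, Slc4a1, passed the unadjusted limit, where 10.2% of all genes tested did, 5.18% as higher and 4.99% as lower in HrasG12V. None of the 7 passed the adjusted limit in limma, which 0.0599% of all genes tested passed. Slc4a1 was also the single one with every mutant above every WT mouse, an order that 8.11% of the genes tested showed, and none had every mutant below every WT mouse, as 10.4% did. Counted mouse by mouse over all 9 genes, 6 were above all WT mice in mouse 2276, 8 in mouse 2278 and 3 in mouse 2279. Over all 23997 symbols these shares were 28.9%, 27.4% and 28%. Those symbols include 4609 at 0 in all 6 libraries, which cannot be above WT, so the shares among symbols with any signal are higher.

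Hba-a1, Hbb-b1, Hbb-bt and Alas2 moved with both mutant 2276 and mutant 2279. Without 2276 their log2 fold changes were 0.25, 0.43, 0.49 and 0.63, with unadjusted p of 0.466, 0.348, 0.317 and 0.166 in limma. Without 2278 the unadjusted p in limma were 0.295, 0.340, 0.290 and 0.189, in the same order. Mouse 2279 was the mutant with the least of each of these genes, so leaving it out raised every difference. The p-values without it are therefore not read as support. Without 2279, and with the other 5 mice kept, the log2 fold changes in limma were 1.17 for Hba-a1 (unadjusted p = 0.0168), 1.27 for Hbb-b1 (unadjusted p = 0.0111), 1.41 for Hbb-bt (unadjusted p = 0.00141) and 1.21 for Alas2 (unadjusted p = 0.00084). These 4 genes and Slc4a1 then passed the unadjusted limit, as 11.5% of all genes tested did in that fit, and none passed the adjusted one. Without mouse 2276, Slc4a1 passed the adjusted limit, as did 1291 genes in all (9.66% of those tested). Without both mice 2278 and 2279, so that mouse 2276 alone stood against 3 WT mice, the log2 fold changes were 1.59 for Hba-a1, 1.43 for Hbb-b1, 1.59 for Hbb-bt, 1.15 for Alas2 and 1.32 for Slc4a1. All 5 then passed limma's adjusted limit, as did 4200 genes in all (31.4%), with mouse 2276 assumed to vary as the WT mice do, so this describes mouse 2276 and not the genotype. The signs of Hba-a2 and Hbb-bs rested on single mice, since Hba-a2 came to -0.16 without WT mouse 2277 and to -0.48 without mutant 2278, and Hbb-bs to -0.22 without 2277.

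**Figure D3:**
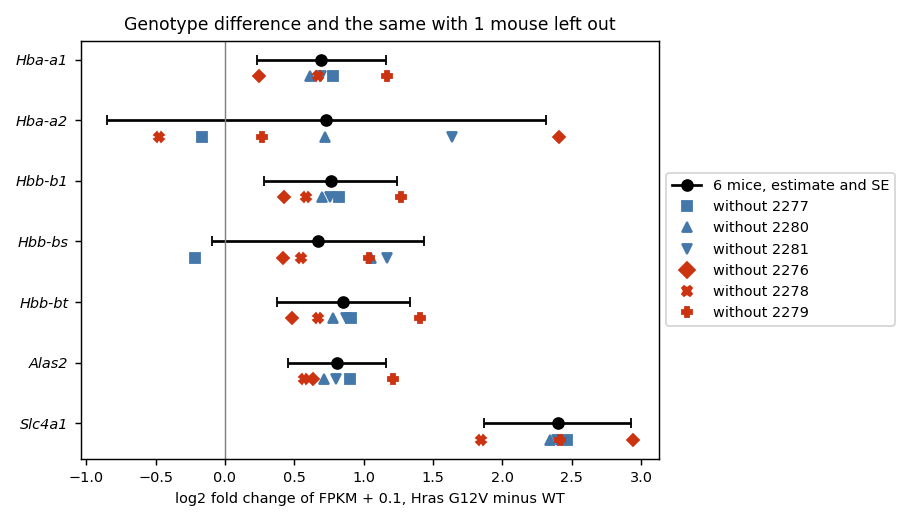
Log2 fold change of FPKM + 0.1 (HrasG12V minus WT, horizontal axis) of the 7 genes tested, with all 6 mice (black circle, bar of 1 SE) and with 1 mouse left out (blue symbols for a WT mouse, red for a HrasG12V mouse). Leaving out mouse 2279 gave the highest value for Hba-a1, Hbb-b1, Hbb-bt and Alas2, and Slc4a1 stayed to the right of 0 throughout.

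Promoters of the set are shown for the motifs that GATA1 and KLF1 are known to bind, since Gata1 and Klf1 are members and globin genes are their targets. The sequences are the 120 bases before the RefSeq gene start on GRCm38.p6, read 5' to 3' on the gene's strand, which may differ from the GENCODE start. Capitals mark matches on either strand to 3 motifs. A GATA motif was taken as AGATAA, whose last letter could also be G and whose first could also be T. A CACCC motif was taken as CCACCC or, with a base more, as CACACCC. The other motif was the CCAAT box.

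Hba-a1, chr11:32283552-32283671, plus strand: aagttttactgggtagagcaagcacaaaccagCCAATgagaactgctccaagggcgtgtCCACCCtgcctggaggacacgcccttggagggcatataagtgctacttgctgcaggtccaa
Hbb-bs, chr7:103827929-103828048, minus strand: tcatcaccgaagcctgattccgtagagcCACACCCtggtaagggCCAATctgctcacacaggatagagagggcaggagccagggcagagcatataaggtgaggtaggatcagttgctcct
Hbb-bt, chr7:103813924-103814043, minus strand: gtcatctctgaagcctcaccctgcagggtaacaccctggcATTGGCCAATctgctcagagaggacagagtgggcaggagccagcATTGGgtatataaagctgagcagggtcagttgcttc
Alas2, chrX:150547297-150547416, plus strand: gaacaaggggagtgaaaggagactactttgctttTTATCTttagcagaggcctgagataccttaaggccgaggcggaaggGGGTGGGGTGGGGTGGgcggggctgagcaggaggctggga
Klf1, chr8:84901862-84901981, plus strand: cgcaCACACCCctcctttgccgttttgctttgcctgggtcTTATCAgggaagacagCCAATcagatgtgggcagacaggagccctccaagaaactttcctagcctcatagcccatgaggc
Gata1, chrX:7967911-7968030, minus strand: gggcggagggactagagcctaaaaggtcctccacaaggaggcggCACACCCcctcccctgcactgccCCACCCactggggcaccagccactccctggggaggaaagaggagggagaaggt

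The bases before Hba-a2 are the same as those before Hba-a1 with the start moved by 3 bases, and 247 compared bases showed 0 differences, so Hba-a2 is not printed. In the 250 bases before the start, counted from the start with negative numbers, Hba-a1 held a GATA motif at -183, CCAAT at -88 and a CACCC motif at -61. Hbb-bs held a GATA motif at -210, a CACCC motif at -92 and CCAAT at -76. Hbb-bt held a CACCC motif at -141 and CCAAT at -80, -75 and -36, with no GATA motif in these letters. The order of CACCC before CCAAT, as found in Hbb-bs, Hbb-bt and Klf1, was turned round in the alpha genes.

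Alas2 held a GATA motif at -86 that overlaps an AT-rich match at -88, and CACCC motifs at -40, -35 and -30 on the other strand. Klf1 held a CACCC motif at -116, a GATA motif at -80 and CCAAT at -64, and Gata1 held CACCC motifs at -76 and -53. Of the 7 members with a promoter sequence, 7 held a CACCC motif, as 32.7% of 32851 promoters of that length did, and 5 held a GATA motif, as 26.5% did. CCAAT was found in 5 of the 7 and in 33.8% of all promoters. A TATA-like match (TATAAA or ATAAAA or ATATAA) was found in 5 of the 7 and in 26.1% of all. Hba-a1 and Hba-a2 are both counted among the 7, although the bases before them are the same. Such matches are descriptions of letters and not of binding.

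**Figure D4:**
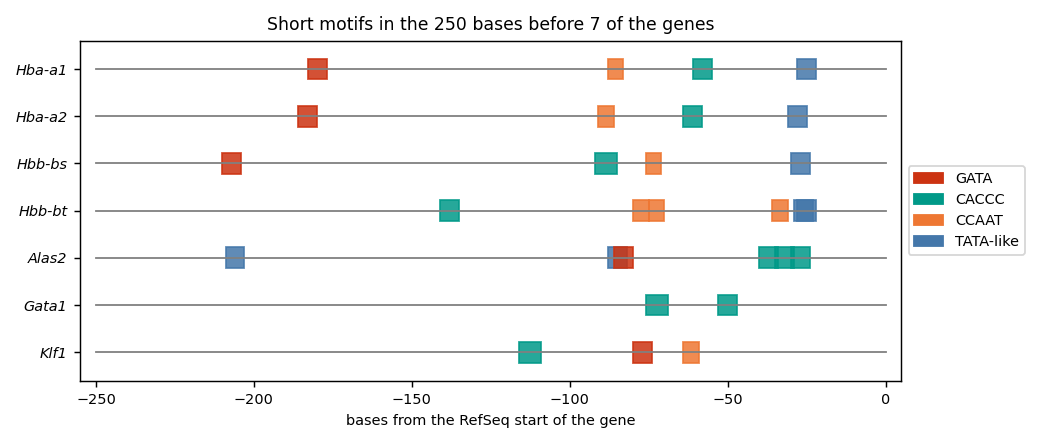
Matches of 4 short motifs on either strand in the 250 bases before the RefSeq start of 7 of the genes (horizontal axis, bases from the start). The 4 globin genes and Klf1 hold CCAAT, all 7 hold a CACCC motif, and Hbb-bt and Gata1 hold no GATA match.

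Other globin chains, among them those of the embryo, were listed at low values or at 0. Of 7 other globin chains listed, 6 had a row, and Hbb-bh1, Hbb-bh2 and Hba-x, all embryonic chains, were listed at 0 in all 6 libraries. Hbb-y, an embryonic beta-like chain, was at 0.162 FPKM in mouse 2276 and listed at 0 elsewhere. Hbq1b, a theta chain, was listed at 0 in WT mice 2277 and 2280, at 0.0971 FPKM in 2281, and at 0.246, 0.404 and 0.174 FPKM in mutants 2276, 2278 and 2279. Hbq1a, the other theta gene, was at 0.0569 and 0.114 FPKM in WT mice 2277 and 2280, at 0.205 and 0.0372 FPKM in mutants 2276 and 2278, and listed at 0 in 2281 and 2279, with overlap. None of these chains reached the level needed for the test.

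The remaining enzymes of heme synthesis are used by all cells. For this and each list that follows, the shares of all genes tested past the unadjusted limit were 5.18% higher and 4.99% lower, with a median log2 fold change of -0.03. Of 8 genes tested, 0 were higher and 1 was lower past the unadjusted limit, and the median log2 fold change was -0.23. Cpox, which makes protoporphyrinogen from coproporphyrinogen, was at 14.4, 11.7 and 13.8 FPKM in the WT mice and 10.3, 9.20 and 9.78 FPKM in mutants 2276, 2278 and 2279. All 3 mutants lay below the WT mice, with a log2 fold change of -0.44 (SE 0.15, limma, unadjusted p = 0.0237, adjusted p = 0.454). Alas1, the ubiquitous counterpart of Alas2, was at 53.1, 59.7 and 53.1 FPKM in the WT mice and 79.3, 28.2 and 33.7 FPKM in the mutants, high in 2276 and low in 2278 and 2279.

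Among 13 other genes of the red cell membrane and skeleton, 7 were tested, with 0 higher and 1 lower past the unadjusted limit and a median log2 fold change of -0.07. Gypc, which encodes glycophorin C, a link between membrane and skeleton found in many cell types, was at 11.2, 12.2 and 13.7 FPKM in the WT mice and at 17.03, 18.2 and 13.9 FPKM in mutants 2276, 2278 and 2279. All 3 mutants lay above WT, mouse 2279 by little, with a log2 fold change of 0.40 (SE 0.17, limma, unadjusted p = 0.0572, adjusted p = 0.504). Epb41 went the other way, at 27.6, 25.4 and 33.2 FPKM in the WT mice and 23.5, 21.8 and 21.8 FPKM in the mutants. All 3 mutants lay below WT (log2 fold change -0.35, SE 0.17, limma, unadjusted p = 0.0815, adjusted p = 0.541). Tmod1, which caps actin filaments in red cells and in muscle, was the lower one, at 70.5, 66.0 and 90.7 FPKM in WT and 56.8, 55.5 and 45.1 FPKM in mutants (log2 fold change -0.52, SE 0.21, limma, unadjusted p = 0.0469, adjusted p = 0.488).

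The other 6 membrane genes were too low to be tested. They were Epb42, Rhag, Rhd, Kel, Ermap and Add2, and all were highest in mouse 2278 and next highest in mouse 2279. Rhag, which encodes the Rh-associated glycoprotein, was listed at 0 to 0.0573 FPKM in WT mice, and was at 0.0188 FPKM in mouse 2276, 1.18 in 2278 and 0.680 in 2279. In contrast to Slc4a1, Rhag in mouse 2276 was within the WT range, as was Epb42, and Add2 was under it. Rhd, Kel and Ermap in mouse 2276 were above every WT mouse, as Slc4a1 was. They were at 0.239, 0.0699 and 0.247 FPKM, against at most 0.130, 0.0339 and 0.202 FPKM in WT. Rhag was picked for display after its values were seen.

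Among 14 genes of the reticulocyte cytosol and of organelle clearance, 13 had a row and 10 were tested, with 2 higher and 0 lower past the unadjusted limit and a median log2 fold change of 0.16. Tspo2, an erythroid relative of the translocator protein, was at 0.160, 0.128 and 0.188 FPKM in the WT mice and 0.452, 1.38 and 0.915 FPKM in mutants 2276, 2278 and 2279. All 3 mutants were above WT, in the order of Slc4a1, with a log2 fold change of 1.87 (SE 0.55, limma, unadjusted p = 0.0125, adjusted p = 0.412). With a WT mean under 0.5 FPKM, Tspo2 entered the test through the mutants in which it was high. Isg20, which encodes an exonuclease, had one of 1.004 (SE 0.39, limma, unadjusted p = 0.0370, adjusted p = 0.481).

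The mice differed within this group as well. Isg20 was high in 2276 and 2278, at 5.60 and 4.54 FPKM, and at 1.91 FPKM in 2279 against 1.73 to 1.80 FPKM in WT, so that 2279 was close to WT but above it. Car1, the carbonic anhydrase of early erythroid cells, was at 0.0732 to 0.213 FPKM in the WT mice, 0.0689 in 2276, 1.08 in 2278 and 2.30 in 2279, as Gata1 and Klf1 were. Car1 had a log2 fold change of 1.77 (SE 1.04, limma, adjusted p = 0.621), and like Tspo2 it had a WT mean under 0.5 FPKM and entered the test through the mutants that were high.

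Of 14 further erythroid regulators, 11 were tested, with 4 higher and 0 lower past the unadjusted limit (5.18% and 4.99% over all genes) and a median log2 fold change of 0.51. The higher ones were Bcl11a, Lyl1, E2f2 and Lmo2. Bcl11a, which represses embryonic globin chains and is also needed in B cells, was at 0 to 0.0297 FPKM in WT, 0.111 in 2276, 1.33 in 2278 and 1.51 in 2279 (log2 fold change 2.77, SE 1.02, limma, unadjusted p = 0.0320, adjusted p = 0.477). Bcl11a too had a WT mean under 0.5 FPKM and entered the test through mutants 2278 and 2279, so that 3 of the 4 calls rest on genes that passed the filter in WT as well. Lmo2, a bridge between GATA1 and TAL1 that endothelial cells also express, was at 4.54 to 5.99 FPKM in WT, 5.91 in 2276, 9.64 in 2278 and 8.58 in 2279 (log2 fold change 0.62, SE 0.22, limma, unadjusted p = 0.0297, adjusted p = 0.469). Over all 14 regulators, 7 were above every WT mouse in mouse 2276, 11 in 2278 and 10 in 2279, where 28.9%, 27.4% and 28% of all symbols were. The lowest was Klf3, a repressor of the same family as Klf1, with a log2 fold change of -0.79 (SE 0.41, limma, adjusted p = 0.565).

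Genes of erythroid iron import supply the iron that is built into heme. Of 6 genes tested, 0 were higher and 0 lower past the unadjusted limit in limma, with a median log2 fold change of -0.15. Tfrc, which encodes the transferrin receptor, was at 78.9, 157 and 161 FPKM in the WT mice and 113, 140 and 63.2 FPKM in mutants 2276, 2278 and 2279, with overlap (log2 fold change -0.33, SE 0.42, limma, adjusted p = 0.840). None of the genes in the lists above passed the adjusted limit in limma.

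Markers of other blood and marrow cells were high in the mutants with the most Slc4a1. Over 10 markers of marrow neutrophil precursors, such as Mpo and Elane, the summed level was 0.0703 to 0.354 FPKM in the WT mice, 0.704 in mouse 2276, 29.9 in 2278 and 14.6 in 2279, and 10 of 10 were above every WT mouse in each of 2278 and 2279, against 2 of 10 in 2276. Of all symbols 28.9% were above every WT mouse in 2276, 27.4% in 2278 and 28% in 2279. In WT mice 2 of these 10, Fcnb and Ms4a3, were at 0 throughout. B and T cell markers summed to 1.33 to 1.79 FPKM in WT, 2.24 in 2276, 103 in 2278 and 96.1 in 2279. Neutrophil markers summed to 5.29 to 10.8 FPKM in WT, and to 26.1, 127 and 60.3 FPKM in 2276, 2278 and 2279.

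All 3 sums were highest in mouse 2278, as Slc4a1 was. The neutrophil sum was above WT in all 3 mutants, as Slc4a1 was, with 5 of 8 markers above every WT mouse in 2276 (28.9% of all symbols). In 2276 S100a8 and S100a9, at 9.06 and 10.1 FPKM, made up most of that sum. Il1b was barely above WT there, at 0.354 against at most 0.351 FPKM. Mmp9 and Csf3r were within the WT range in 2276, and Lcn2 was under it. The lymphocyte sum of 2276 was above WT but far below those of 2278 and 2279. Its Gata1 was within the WT range and its Klf1 was listed at 0. In limma, 1 of 6 marrow progenitor markers (Spi1) was higher past the unadjusted limit and 0 were lower, where 5.18% and 4.99% of all genes tested were. Of 8 neutrophil markers, 4 (S100a8, S100a9, Retnlg and Cxcr2) were higher past it, but 3 of the 8 tested, Retnlg among them, had a WT mean under 0.5 FPKM, so the count of 4 is not read as support. Of the neutrophil precursor markers 3 of 4 tested, and of the B and T cell markers 7 of 10, were also past it, but all of those tested had a WT mean under 0.5 FPKM and entered the test through the mutants that were high, so these counts support nothing.

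Some markers of other cells, picked after their values were seen, were high in mice 2276 and 2278 as globin was, but highest in 2278. Macrophage marker C1qa was at 12.9 to 13.7 FPKM in WT and 23.7, 24.3 and 14.03 FPKM in mutants 2276, 2278 and 2279, and C1qc at 11.2 to 14.6 FPKM in WT and 21.7, 22.7 and 12.6 FPKM in the mutants. Pf4, a platelet chemokine gene, was at 8.62 to 10.5 FPKM in WT and 17.6, 17.9 and 6.86 FPKM in the mutants. In mouse 2279 C1qa was just above WT, C1qc within the WT range and Pf4 under it. Other genes of the same lists differed from these. In mouse 2276 the macrophage markers Adgre1, at 1.31 FPKM against 2.01 to 2.76 FPKM in WT, and Lyz2, at 28.1 against 29.9 to 34.1 FPKM, were below WT. The platelet genes Ppbp and Itga2b were high in 2278 and 2279 and within the WT range in 2276, and Gp1ba was below WT in all 3 mutants. For the next 3 lists, the shares of all symbols above every WT mouse were 28.9% in 2276, 27.4% in 2278 and 28% in 2279. Marrow progenitor markers, some of which vessels also express, had 7 of 8 above every WT mouse in 2278 and 6 of 8 in 2279, against 2 of 8 in 2276. Platelet and megakaryocyte markers, which share Gata1 with red cells, had 7, 6 and 4 of 10 above every WT mouse in 2278, 2279 and 2276, and 0 of 4 tested passed the unadjusted limit. Macrophage markers had 3, 8 and 3 of 8 above every WT mouse in 2276, 2278 and 2279, with 1 of 8 higher past that limit (C1qa) and a median of 0.46, and endothelial markers 2 of 8 lower (Cdh5 and Tie1) with a median of -0.25. Skeletal muscle markers had 0 of 8 past the limit. The labels do not say whether marrow or lymph node was dissected with the muscle of mice 2278 and 2279. The part of these cells in the levels of the erythroid genes was not tested, and in bulk tissue more cells of a type and more RNA per cell cannot be told apart.

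**Figure D5:**
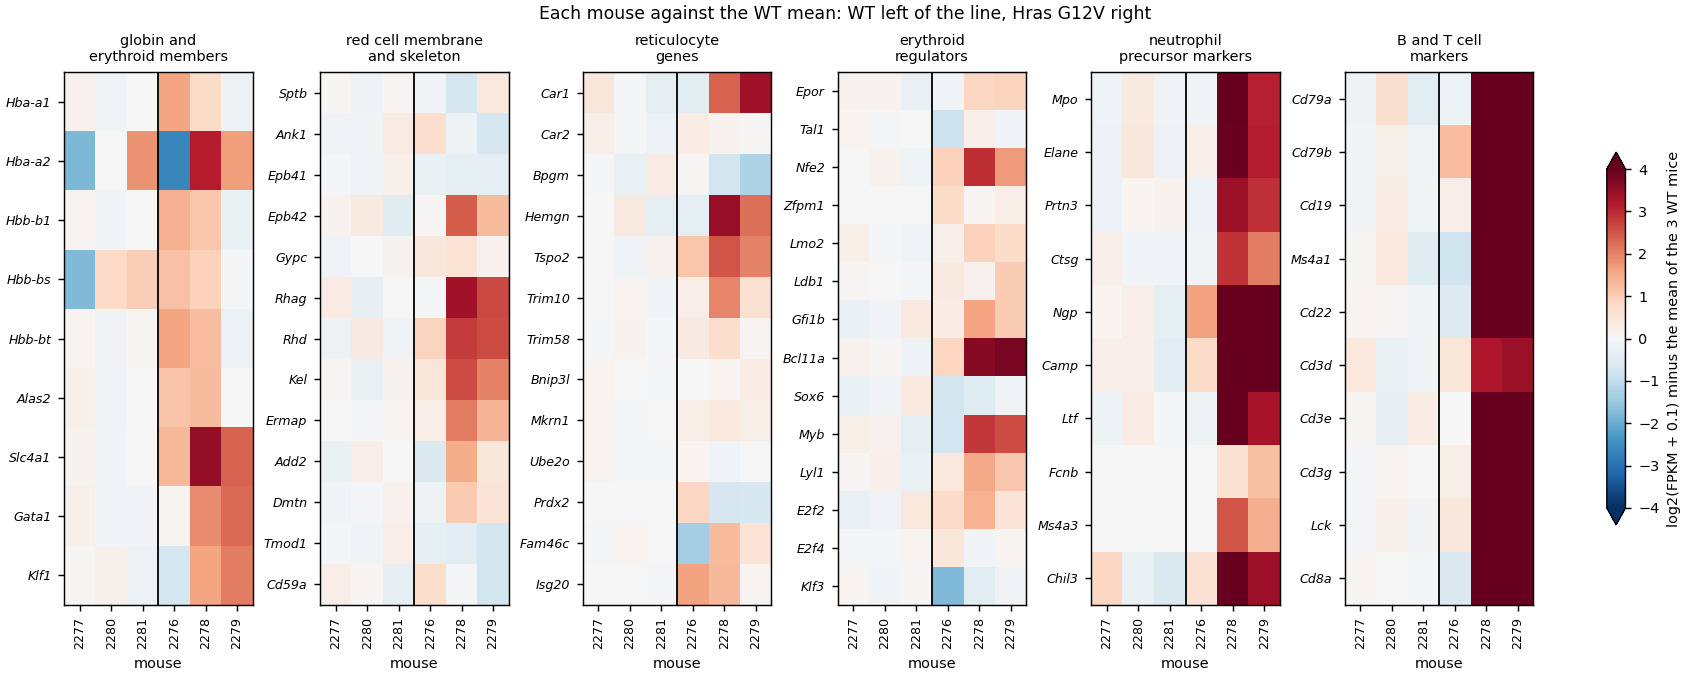
Log2(FPKM + 0.1) of each gene minus the mean of the 3 WT mice (colour, red above and blue below, limited to 4 either way) in each mouse, with WT to the left of the line in each panel and HrasG12V to the right. Hba-a1, Hbb-b1, Hbb-bt and Alas2 are red in mice 2276 and 2278, while Gata1, Klf1, neutrophil precursor markers and B and T cell markers are red in 2278 and 2279.

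Genes whose pattern was most like that of adult globin were ranked by Pearson's r of log2(FPKM + 0.1) with the summed globin level over the 6 libraries, among 12171 genes with a mean of at least 1 FPKM. The 10 nearest were 2700029M09Rik (r = 0.998), Edn3, Cfdp1, Nes, Dnajc17, Umps, Snord33, Entpd6, Myh8 and Zfp330 (r = 0.981). Nes encodes nestin, an intermediate filament of muscle and neural precursors, and Myh8 the perinatal myosin heavy chain. The nearest, 2700029M09Rik, was at 5.47, 5.196 and 5.45 FPKM in the WT mice and 9.42, 7.83 and 4.71 FPKM in mutants 2276, 2278 and 2279, which is the order of the globin sum.

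For Alas2, 9 of the 10 nearest were D19Bwg1357e (r = 0.993), Dph5, Mir7067, Edn3, Mir719, Mir431, Gngt2, Tagln2 and Ssb (r = 0.972). Edn3, an endothelin gene, was near both globin and Alas2, at 1.11 to 1.26 FPKM in the WT mice and 2.64, 2.29 and 1.16 FPKM in mutants 2276, 2278 and 2279. The points share 6 libraries, of which 2276 and 2278 carry most of the range. Without the 2 libraries farthest from the median, r was 0.955 for 2700029M09Rik and 0.960 for D19Bwg1357e, but 0.428 for Nes, 0.423 for Myh8, 0.03 for Tagln2, -0.09 for Ssb and -0.72 for Mir719. Snord33, Mir7067 and Mir431 were listed at 0 in 4 libraries.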

How the data were processed

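Stranded mRNA libraries from gastrocnemius muscle were sequenced as single-end reads of 50 bases. The deposited values are FPKM per gene symbol, which the authors made with TopHat, Cufflinks and Cuffnorm. Builds GRCm38 and mm10 and bcl2fastq are named in the submitters' processing notes, without versions. The annotation is not given in the sources used here. Because Cuffnorm rescales the libraries, an FPKM total is no depth. Ratios of values under 0.2 FPKM between pairs of libraries were binned at a width of 0.02 on the log2 scale, the fullest bin held 0.958% to 5.92% of genes, and whole reads could not be recovered. A total of 4609 symbols were at 0 in all 6 libraries.

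Genotypes came from the labels. From the FPKM, log2(FPKM + 0.1) was computed, which understates changes of low genes. Genes with a mean of at least 0.5 FPKM were compared in R 4.3.3 with the moderated linear model of limma 3.58.1 (trend over abundance, two-sided, no covariate, limit 0.05, Benjamini-Hochberg over 13359 genes), tested beforehand on simulated data. Sums, ratios and likeness were computed with Python 3.11.15 and pandas 2.3.3 and have no p. Plots were drawn with matplotlib 3.10.9. In all, 4 list genes were matched by an older symbol, and Hbb-b2 and Ahsp had no row. Several list genes are not reported here and were left out of the list counts. Promoters were read from RefSeq (GRCm38.p6) and coding stretches from GENCODE vM21. The members and lists were chosen with earlier results of these data known. The rule for named genes was the 9 members, of each list those past the unadjusted p and the 2 highest and 2 lowest, and the 10 genes most like globin or Alas2. Not all that it allowed are printed, and some list genes outside it were picked once their values were known. The alternatives used pseudocounts of 1 and 0.01, no filter or a mean of at least 1 FPKM, 3 other scalings, no or robust moderation, array weights, and leaving out each mouse. The fit without mice 2278 and 2279 was added after seeing the data.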

Additional observations from a re-analysis of the deposited data

How the results depend on the processing

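All 7 genes tested kept a log2 fold change above 0 under each pseudocount, filter, scaling, moderation and weighting, and Slc4a1 kept its unadjusted call in all of these, with values of 1.51 (pseudocount of 1) to 2.92 (array weights), and with each mouse left out, with values of 1.85 to 2.94. The summed globin difference ran from 0.40 to 1.26 when 1 mouse was left out and from 0.71 to 0.77 otherwise. Members past the unadjusted p, 1 with all mice, were 2 with no filter (Gata1 added), 3 with libraries rescaled to the same total FPKM (Hba-a1 and Hbb-bt added), 5 without mice 2278 and 2279, and 1 to 5 with 1 mouse left out, 5 being without 2279. Members past the adjusted p, 0 with all mice, were 1 with array weights (Slc4a1), 5 without mice 2278 and 2279, and 0 to 1 with 1 mouse left out. Without 2278 and 2279 mouse 2276 is assumed to vary as the WT mice do. Hba-a2 came to -0.16 without 2277, -0.48 without 2278 and -2.62 without both 2278 and 2279, with 2.41 as the highest of its values with 1 mouse left out (without 2276). Hbb-bs came to -0.22 without 2277 and to 1.17 without 2281.

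Over all genes, 1358 passed the unadjusted p, and 712 did with the same total FPKM, 3042 with array weights, 6312 without mice 2278 and 2279, and 606 to 3979 with 1 mouse left out. The adjusted p was passed by 8 genes, by 5 with a pseudocount of 1, by 1 with no moderation, by 572 with array weights, by 4200 without mice 2278 and 2279, and by 7 to 1291 with 1 mouse left out. Both highest counts with 1 mouse left out came without mouse 2276. The causes were not tested. No paired analysis was possible because the mouse numbers are unique and pair no mice across genotypes. FPKM without read counts give no counting error, so the precision of Gata1 and Klf1 is known only from the spread of 3 mice.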

Other observations

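Globins made outside red cells had patterns of their own. Mb, which encodes myoglobin, the oxygen store of oxidative muscle fibers, had 1664, 1771 and 877 FPKM in the WT animals 2277, 2280 and 2281 and 3015, 516 and 630 FPKM in HrasG12V mice 2276, 2278 and 2279. It was highest in mouse 2276, as adult globin was, but lowest in 2278, and the genotypes overlapped (log2 fold change -0.47, SE 0.74, limma, adjusted p = 0.879). Cygb, which encodes cytoglobin of fibroblasts and related cells, was at 8.36, 8.97 and 7.32 FPKM in the WT mice and 10.5, 12.5 and 14.1 FPKM in the mutants, with all mutants above all WT mice (log2 fold change 0.58, SE 0.17, limma, unadjusted p = 0.0136, adjusted p = 0.422). Ngb, the neuronal globin, did not exceed 0.120 FPKM in any library.

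Of 9 tested genes of iron storage and heme breakdown, 0 were higher and 1 was lower past the unadjusted p, with a median log2 fold change of 0.26. The lower one was Slc40a1, which encodes ferroportin, the iron exporter of macrophages and other cells. It was at 14.9, 18.0 and 14.4 FPKM in the WT mice and 5.05, 4.68 and 8.65 FPKM in mutants 2276, 2278 and 2279, with no overlap (log2 fold change -1.40, SE 0.26, limma, unadjusted p = 0.00126, adjusted p = 0.288). Ftl1, a ferritin light chain gene, was at 178 to 215 FPKM in WT and 322, 217 and 296 FPKM in the mutants (log2 fold change 0.52, SE 0.26, limma, adjusted p = 0.547). Hp, which encodes haptoglobin, the plasma carrier of free hemoglobin, was at 2.11 to 10.5 FPKM in WT, 4.84 in 2276 and 17.8 in each of 2278 and 2279 (log2 fold change 1.17, SE 0.72, limma, adjusted p = 0.630).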
